A study of Mus musculus with 11 samples.

Results

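This report describes what an siRNA against Crebl2 did to the transcriptome of rapamycin-treated mouse fibroblasts: 3 arrays of Crebl2 siRNA with rapamycin were set against 3 arrays of luciferase siRNA with rapamycin, 6 of the 11 arrays of the series. They were chosen by their labels alone. All cells were a mouse embryonic fibroblast line labelled p53-/- TSC2-/-, grown in DMEM with serum, so both deletions were carried by the controls as well. Per the labels, cells were transfected with siRNA for 3 days (2.5 days, against "Creb2", in the design text of the series) and for the last 12 h received rapamycin at 20 nM or, as its vehicle, ethanol. The other 5 arrays were 3 of Crebl2 siRNA with ethanol and 2 of luciferase siRNA with ethanol. Total RNA was hybridised to single-colour Illumina bead arrays, whose deposited intensities give 1 value per probe. The labels do not say whether replicates came from separate cultures, so p-values reflect no more than how these arrays scatter. With 3 arrays a group, the precision of all values is limited by their number. In RNA from a culture, fewer cells of a kind and less RNA per cell cannot be told apart.

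Rapamycin inhibits mTORC1, the kinase complex that promotes ribosome production, protein synthesis and lipid synthesis when nutrients and growth factors allow. TSC2 is part of the complex that restrains mTORC1, so cells without it keep mTORC1 active, and rapamycin lowers that activity. Crebl2 is a small bZIP protein. Its fly relative REPTOR-BP acts with REPTOR, the relative of mammalian Crebrf, to turn on genes when TORC1 is inhibited in flies. The comparison therefore asks which transcripts depend on Crebl2 siRNA while mTORC1 is inhibited.

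Before any gene is read, 4 arrays have to be set apart. Replicate 3 of Crebl2 siRNA with ethanol lay with the 3 arrays of Crebl2 siRNA with rapamycin, between 67.2 and 70.4 on the first principal component (67.7% of the variance), while the other 7 arrays lay between -47.3 and -32.1. On the second component (10.1%) the same replicate 3 stood at -22.1, beside the other 4 ethanol arrays (-20.6 to -19.6). Log2 levels correlated across genes at 0.985 to 0.990 within the 4 arrays, 0.979 to 0.991 within the 7 and 0.921 to 0.940 between the 2 sets. Of the probes, 606 were detected at p under 0.01 on all 4 arrays and at p under 0.05 on none of the 7. The reverse, on all 7 and none of the 4, held for 7 probes, and it asks for detection on more arrays. Detected probes made up 46.9% to 51.2% of an array. The labels name no batch. All 3 arrays of Crebl2 siRNA with rapamycin carry this shift and no array of luciferase siRNA does, so in rapamycin the shift and the siRNA cannot be told apart within the 6 arrays. The size of the shift was therefore taken per gene in ethanol, as replicate 3 minus the mean of replicates 1 and 2 of Crebl2 siRNA, and subtracted from the rapamycin difference. This subtraction rests on 1 array on 1 side, and its standard errors are accordingly larger (median 0.287 against 0.205 without it).

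**Figure D1:**
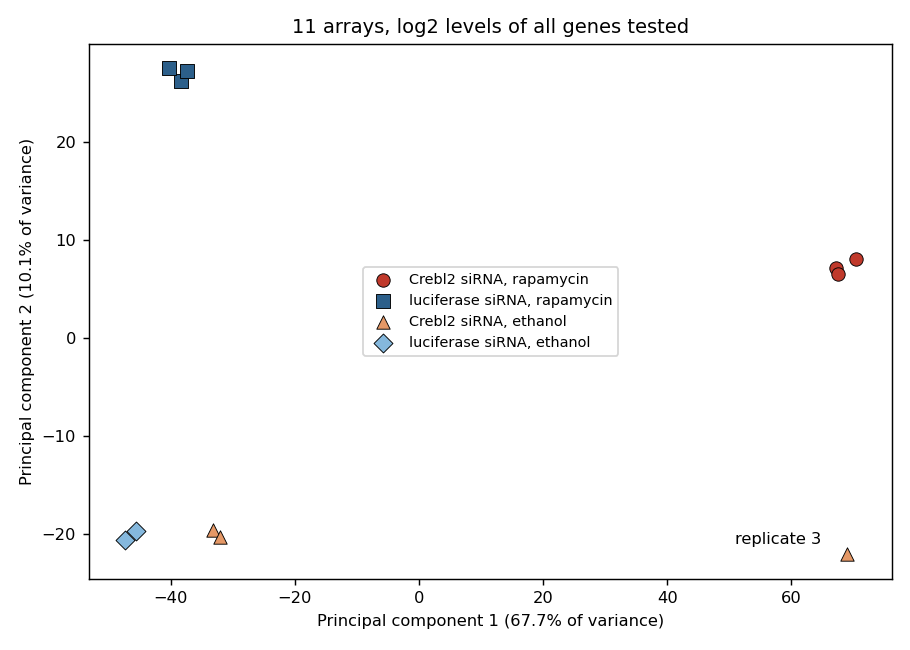
Scores of the 11 arrays on the first 2 principal components of log2 levels over all genes tested (horizontal and vertical axes, with the share of variance of each), 1 point per array, coloured by group. Replicate 3 of Crebl2 siRNA with ethanol, named beside its point, lies with the 3 arrays of Crebl2 siRNA with rapamycin on the horizontal axis and with the other ethanol arrays on the vertical axis.

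Across 15908 genes, 4636 (29.1%) differed between Crebl2 siRNA and luciferase siRNA in rapamycin at an adjusted p under 0.05 (limma, Benjamini-Hochberg over all genes): 1822 were higher (11.5%) and 2814 lower (17.7%). Differences are given as the mean log2 level with Crebl2 siRNA minus that with luciferase siRNA, with the standard error of the fit, and their median over all genes was -0.14. Leaving out 1 array gave 3060 genes (without replicate 3 of Crebl2 siRNA with rapamycin) to 6417 genes (without replicate 3 of Crebl2 siRNA with ethanol), with 3084 without replicate 3 of luciferase siRNA with rapamycin. The groups did not overlap for 7883 genes (49.6%). Across genes the rapamycin difference and the shift, which share no array, correlated at 0.865. After the shift was subtracted the median over all genes was -0.00 and 8 genes passed (0.0503%), 7 of them lower (0.044%) and 1 higher (0.00629%), out of 2039 with an unadjusted p under 0.05. All 8 had also passed, in the same direction, without the subtraction. A difference that passed, whose groups did not overlap and which kept its direction after the subtraction is called here a difference with its direction kept. There were 3607 of these (22.7%), 1145 higher (7.2%) and 2462 lower (15.5%). Both differences hold the same 6 arrays and no minimum size was asked of what remained, so a kept direction is a weak check. Hspa1b, for example, counts among them with 0.02 left of 3.51. Of the genes that passed, 1002 turned their direction. The effect of Crebl2 siRNA in ethanol, from replicates 1 and 2 of Crebl2 siRNA against both luciferase arrays, shares no array with the unsubtracted rapamycin difference. With the subtracted difference it shares replicates 1 and 2 of Crebl2 siRNA with ethanol. It had the same direction as the unsubtracted difference for 72.3% of the genes that passed in rapamycin, against 58.2% of all genes. On its own 6.36% of the genes passed in ethanol, 2.19% higher and 4.17% lower.

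The subtracted test depended on the scale. On log2 of the deposited values, without background correction, 444 genes (2.79%) passed after the subtraction, 178 higher (1.12%) and 266 lower (1.67%), and all 8 genes were among them. This fit had 18.5 prior degrees of freedom, against 3.20 on the background-corrected scale. Without 1 array it gave 188 genes (without replicate 2 of Crebl2 siRNA with ethanol) to 436, with 222 without replicate 1 of that group. Of the 444 genes, 281 also had their direction kept, 59 higher and 222 lower (22.7%, 7.2% and 15.5% of all genes). Both criteria rest on the same arrays and the same shift, so this overlap is no separate check. Beside the genes below, "on the deposited scale" refers to this fit.

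**Figure D2:**
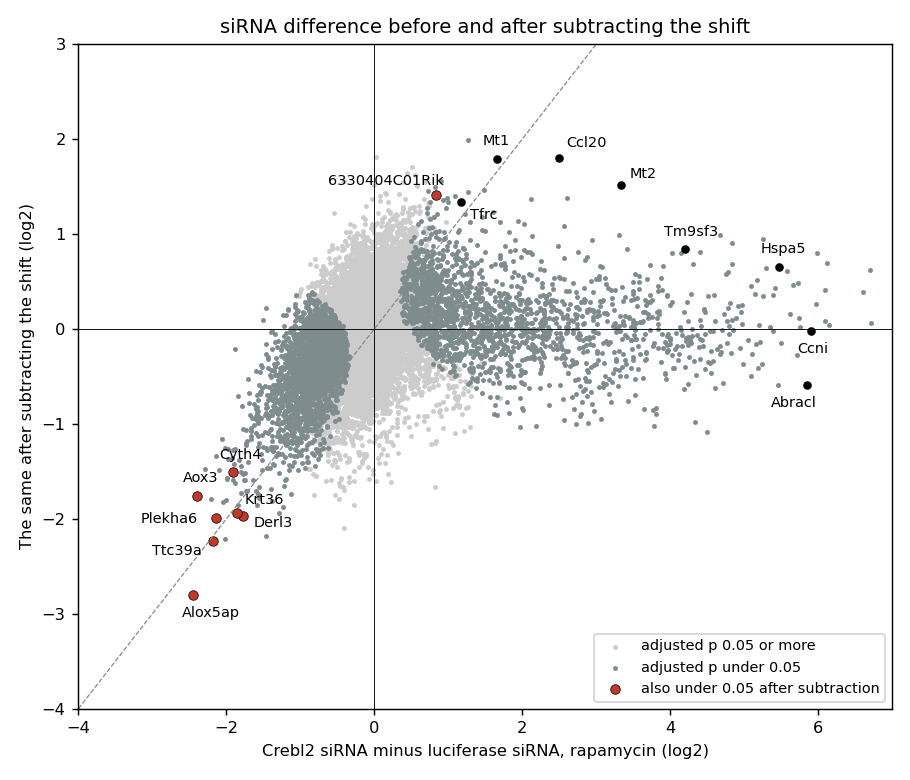
Each point is 1 of the 15908 genes, with its siRNA difference in rapamycin (horizontal, log2) and the same difference after the shift was subtracted (vertical, log2); the dashed line marks equal values. Genes far to the right, such as Hspa5, Ccni and Abracl, lie near 0 on the vertical axis, while Alox5ap, Ttc39a, Plekha6 and Krt36 lie close to the dashed line.

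The 3 arrays of each group say little about the knockdown itself. Crebl2, read by 1 probe near background (detected on 2 of 3 arrays with Crebl2 siRNA and on all 3 with luciferase siRNA), had log2 levels of 4.59, 4.93 and 4.39 with Crebl2 siRNA and 4.80, 5.91 and 5.88 with luciferase siRNA. The groups overlapped, since replicate 1 of luciferase siRNA lay below replicate 2 of Crebl2 siRNA. The difference was -0.90 ± 0.35 (SE; limma adjusted p = 0.0831) and did not pass, and after the subtraction it was -0.14 ± 0.59 (adjusted p = 0.956). It passed without replicate 1 of luciferase siRNA with rapamycin (adjusted p = 0.0290), without replicate 1 of Crebl2 siRNA with ethanol (0.0424) and with array weights (0.0329), within a range of 0.0290 to 0.985 over 23 alternatives. In ethanol Crebl2 stood at 5.52, 4.58 and 4.29 with Crebl2 siRNA against 5.42 and 5.44 with luciferase siRNA. The difference there, from replicates 1 and 2 of Crebl2 siRNA, was -0.38 ± 0.40 and did not pass (limma adjusted p = 0.642). Replicate 1 was not lower than the luciferase arrays, and the shift of Crebl2 was -0.76. The label of the siRNA was therefore taken as given. Crebrf, the mammalian relative of fly REPTOR, differed by 0.08 ± 0.19 (adjusted p = 0.800). Tsc2 transcript was still measured, at 9.19, 9.09 and 8.95 with Crebl2 siRNA and 9.65, 9.64 and 9.90 with luciferase siRNA. Its probes disagreed, with differences of -0.65, -0.57 and 1.58, and all 3 lay between -0.11 and 0.21 after the subtraction. Which part of Tsc2 the deletion removes is not given in the sources used here, so its probes check nothing.

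The transcripts that fell with Crebl2 siRNA whether or not the shift was subtracted were led by Alox5ap. Alox5ap, which presents arachidonate to 5-lipoxygenase at the start of leukotriene synthesis, had log2 levels of 5.59, 5.34 and 5.80 with Crebl2 siRNA and 7.87, 8.21 and 8.01 with luciferase siRNA. The groups lay more than 2 log2 units apart. The fall was -2.46 ± 0.18 (5.49-fold; adjusted p = 0.000221) and -2.80 ± 0.28 after the subtraction (adjusted p = 0.0121), and both probes of the gene fell. In ethanol it was lower by a similar amount, at 5.99, 5.81 and 6.25 with Crebl2 siRNA against 7.78 and 8.08 with luciferase siRNA, a difference of -2.03 ± 0.19 (adjusted p = 0.00182). The shift of Alox5ap was 0.35, upwards. Of the 18 measured eicosanoid and arachidonate genes, 3 were higher and 4 lower, near the 11.5% and 17.7% of all genes, with a median difference of 0.09.

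Ttc39a, a tetratricopeptide repeat protein, had the lowest adjusted p of the 8. Its levels were 5.73, 5.74 and 5.79 with Crebl2 siRNA and 7.90, 8.01 and 7.89 with luciferase siRNA, a fall of -2.18 ± 0.12 (4.54-fold; adjusted p = 5.76e-05). The subtraction left it at -2.23 ± 0.18 (adjusted p = 0.00923), and both probes fell. Plekha6, a pleckstrin homology domain protein, had levels of 5.99, 6.12 and 6.21 with Crebl2 siRNA and 8.26, 8.20 and 8.25 with luciferase siRNA. It fell by -2.14 ± 0.13 (adjusted p = 5.80e-05), was at -1.99 ± 0.19 after the subtraction (adjusted p = 0.0121), and fell on both probes. Krt36, a type I hair keratin, had levels of 4.46, 4.51 and 4.51 with Crebl2 siRNA, detected there on 1 of 3 arrays, and 6.20, 6.40 and 6.43 with luciferase siRNA. The difference was -1.85 ± 0.12 (adjusted p = 0.000133) and -1.94 ± 0.19 after the subtraction (adjusted p = 0.0121). A second Krt36 probe differed by -0.43 ± 0.33 (adjusted p = 0.375). In ethanol these genes differed by -1.83 (Ttc39a), -1.12 (Plekha6) and -0.97 (Krt36), with adjusted p of 0.000591, 0.00365 and 0.00591. These ethanol values share replicates 1 and 2 of Crebl2 siRNA with the subtracted values, but no array with the unsubtracted ones. Of 13 alternatives to the subtracted test, Ttc39a passed in 12, and Alox5ap, Plekha6 and Krt36 passed in 11.

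Aox3, a molybdenum-dependent aldehyde oxidase, lost part of its fall when the shift was subtracted. Its levels were 8.01, 7.78 and 8.11 with Crebl2 siRNA and 10.38, 10.40 and 10.32 with luciferase siRNA. The fall was -2.40 ± 0.19 (5.27-fold; adjusted p = 0.000315), of which -1.76 ± 0.22 remained after the subtraction (adjusted p = 0.0467), and in ethanol the difference was -0.88 ± 0.15 (adjusted p = 0.0127). Derl3, a derlin of the machinery that draws misfolded proteins out of the endoplasmic reticulum, had levels of 4.62, 4.94 and 5.0 with Crebl2 siRNA and 6.51, 6.75 and 6.61 with luciferase siRNA. It fell by -1.77 ± 0.16 (adjusted p = 0.000372; -1.97 ± 0.25 and adjusted p = 0.0476 after the subtraction). In ethanol Derl3 was low in both groups, at 4.33, 4.29 and 4.50 with Crebl2 siRNA against 4.60 and 4.28 with luciferase siRNA, and the difference of -0.13 ± 0.17 did not pass (adjusted p = 0.727). The test of the change of its siRNA effect between rapamycin and ethanol did not pass either (-1.84; adjusted p = 0.0562).

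Both remaining genes that passed after the subtraction lie outside the rule for named genes and are given because their number is small, after their values were seen. Cyth4, an exchange factor for ARF GTPases, had levels of 7.32, 7.25 and 7.45 with Crebl2 siRNA and 9.35, 9.19 and 9.20 with luciferase siRNA. It fell by -1.90 ± 0.15 (adjusted p = 0.000315), with -1.51 ± 0.19 after the subtraction (adjusted p = 0.0476). The transcript 6330404C01Rik was the 1 gene of the 8 that rose, with levels of 6.77, 6.84 and 6.70 with Crebl2 siRNA and 5.89, 5.98 and 5.94 with luciferase siRNA. Its difference was 0.83 ± 0.17 (adjusted p = 0.00720) and 1.41 ± 0.17 after the subtraction (adjusted p = 0.0467). In the 13 alternatives Aox3, Cyth4 and 6330404C01Rik passed in 3 and Derl3 in 2. On the deposited scale all 4 passed, with adjusted p of 6.92e-06 (Aox3), 4.66e-05 (Cyth4), 0.00415 (6330404C01Rik) and 0.00542 (Derl3). Each was read by 1 probe.

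Alox5ap and Cyth4 are best known from leukocytes, and Krt36 and Plekha6 from epithelia. Of 8 macrophage markers 4 were measured, and Adgre1, Ptprc and Tyrobp were detected on none of the 6 arrays. The 4 summed to an intensity of 85 to 130 with Crebl2 siRNA and 142 to 231 with luciferase siRNA, without the subtraction. Their median difference was -0.56, but 0.17 after the subtraction. Of them 0 were higher and 1 lower, against 11.5% and 17.7% of all genes. The lower 1 was Csf1r, at -0.81 (adjusted p = 0.0480; 0.525 after the subtraction). Of 8 epithelial markers 6 were measured, with a summed intensity of 4657 to 5142 with Crebl2 siRNA and 5841 to 6990 with luciferase siRNA. Of these 6 markers 0 were higher and 3 lower (11.5% and 17.7% of all genes). Their median difference was -0.55, with -0.22 after the subtraction. Krt8, Krt18 and Cldn3 fell, by -1.07, -0.66 and -1.33, and Cldn4 was detected on none of the 6 arrays. Cldn3 was not above background with Crebl2 siRNA and was at least 2.42-fold lower there (adjusted p = 0.00387). After the subtraction none of the 3 passed (adjusted p of 0.337, 0.612 and 0.225). The part of other cell types in the falls above was not tested.

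**Figure D3:**
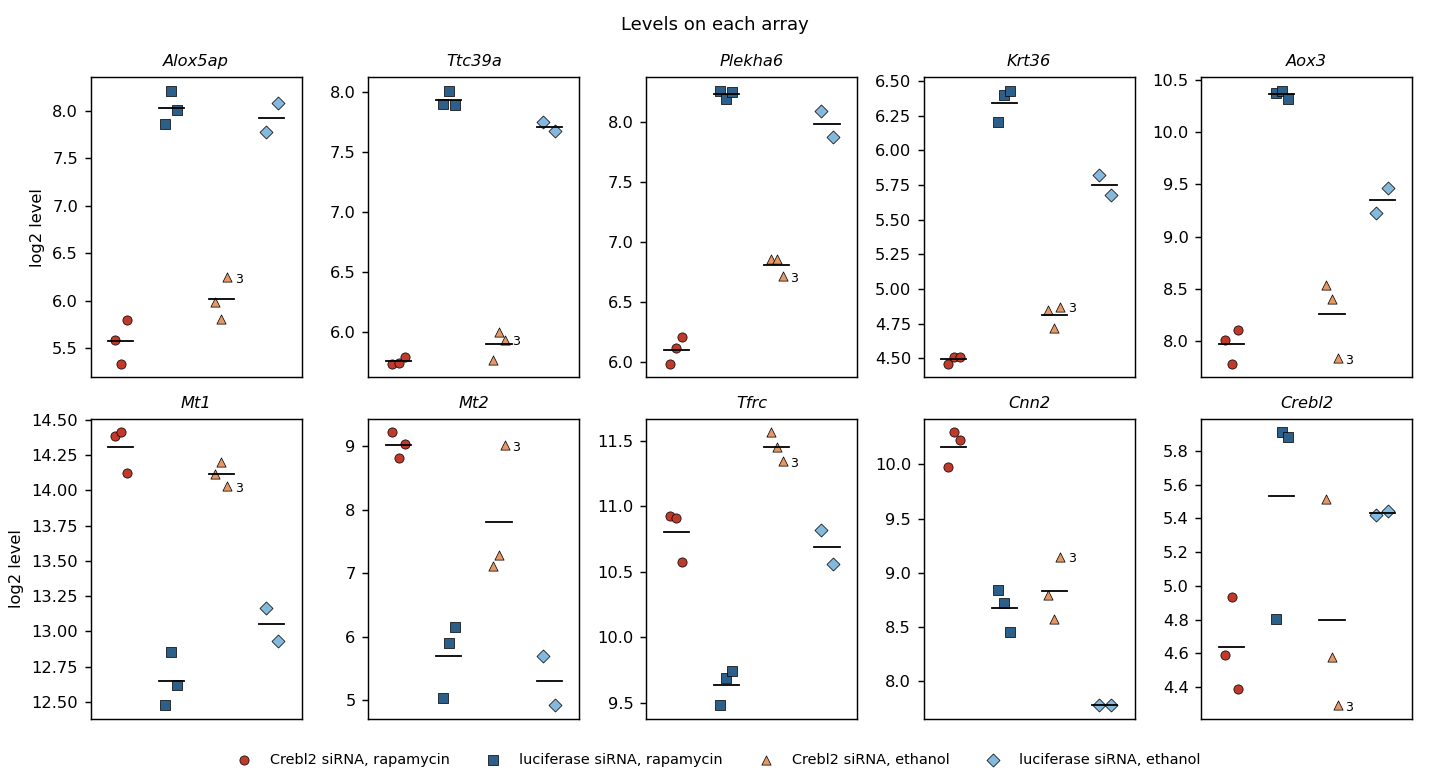
Log2 level (vertical axes) on each of the 11 arrays for 10 genes, 1 point per array, with a bar at the mean of each group; the groups run from left to right as in the legend, and 3 marks replicate 3 of Crebl2 siRNA with ethanol. In Alox5ap, Ttc39a, Plekha6, Krt36 and Aox3 all 3 arrays of Crebl2 siRNA with rapamycin lie below all 3 of luciferase siRNA with rapamycin, in Mt1, Mt2, Tfrc and Cnn2 above them, and in Crebl2 the groups overlap.

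The bZIP proteins of the CREB family bind a palindrome, TGACGTCA, that begins with TGACG. For the genes that passed after the subtraction, RefSeq promoter windows (250 bases before to 50 after the start, mouse GRCm38.p6) were at hand for 6 of 8, and TGACG stood on either strand in 3 of them, against 20.8% of 32851 windows. The whole palindrome TGACGTCA stood in none of these 6 and in 1.79% of all windows. With 6 windows these shares were not tested. Only the windows with a match are shown, with TGACG or its reverse complement in capitals. They are chr4:109415397-109415696 on the plus strand for Ttc39a, chr11:100105577-100105876 on the minus strand for Krt36 and chr1:58112886-58113185 on the plus strand for Aox3.
Ttc39a: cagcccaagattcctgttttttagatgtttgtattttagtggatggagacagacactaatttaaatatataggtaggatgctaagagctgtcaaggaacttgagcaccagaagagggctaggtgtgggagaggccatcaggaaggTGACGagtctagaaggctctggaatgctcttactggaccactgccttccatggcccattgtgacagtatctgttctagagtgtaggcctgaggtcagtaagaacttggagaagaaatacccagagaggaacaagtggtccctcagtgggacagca
Krt36: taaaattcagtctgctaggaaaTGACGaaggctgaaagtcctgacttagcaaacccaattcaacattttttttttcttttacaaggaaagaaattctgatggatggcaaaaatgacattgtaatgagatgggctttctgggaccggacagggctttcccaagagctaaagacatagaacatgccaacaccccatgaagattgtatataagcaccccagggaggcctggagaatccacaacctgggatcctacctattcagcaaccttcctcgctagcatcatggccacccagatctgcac
Aox3: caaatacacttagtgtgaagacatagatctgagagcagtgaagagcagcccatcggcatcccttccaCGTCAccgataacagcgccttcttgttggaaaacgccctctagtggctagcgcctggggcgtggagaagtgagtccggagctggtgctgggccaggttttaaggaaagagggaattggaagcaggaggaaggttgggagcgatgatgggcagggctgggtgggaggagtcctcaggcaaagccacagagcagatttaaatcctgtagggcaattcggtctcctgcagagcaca
The windows of Plekha6, Cyth4 and Derl3 held no TGACG. A match describes these letters only. Binding was not measured.

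Other falls that kept their direction were found in single genes of different kinds. Scube3, a secreted signal peptide and CUB domain protein, had levels of 6.18, 5.82 and 5.68 with Crebl2 siRNA and 7.97, 7.95 and 7.75 with luciferase siRNA. It fell by -2.0 ± 0.17 (adjusted p = 0.000365), with -1.80 after the subtraction, on both probes. Kcnd2, a subunit of A-type potassium channels, fell by -1.59 ± 0.16 (-1.86 after the subtraction), also on both probes. Dkk3, of the Dickkopf family of secreted proteins, had levels of 8.74, 8.70 and 8.76 with Crebl2 siRNA and 10.27, 10.16 and 10.16 with luciferase siRNA. Its fall was -1.46 ± 0.12 (adjusted p = 0.000330), with -1.26 after the subtraction, and both probes fell. Islr, an immunoglobulin-type surface protein, fell by -2.05 ± 0.17, with -1.83 after the subtraction, while its second probe differed by -0.50 (adjusted p = 0.368). Angpt4, a ligand of the receptor Tie2, fell by -1.84 ± 0.21 (-1.85 after the subtraction), and the transmembrane semaphorin Sema4f by -2.10 ± 0.24 (-1.49). Cxcl17, a chemokine, was above background on all 3 arrays with luciferase siRNA (6.20, 6.70 and 6.99) and on none with Crebl2 siRNA. Without the subtraction it was at least 4.59-fold lower there (adjusted p = 0.00232), and after it the difference was -1.48 (adjusted p = 0.276). Rassf4, a RAS-association domain protein, fell by -1.80 ± 0.17 on its brightest probe, and 2 of its 4 probes passed. The transcript 9530077C05Rik fell by -2.01 ± 0.22. Angpt4 and Sema4f were above background on 2 and 1 of the 3 arrays with Crebl2 siRNA. On the deposited scale all of these but Cxcl17 (adjusted p = 0.0994) passed after the subtraction, from 2.60e-05 (Kcnd2) to 0.0442 (Angpt4). Of 5167 genes with at least 2 probes, 563 (10.9%) had agreeing probes, that is, all in 1 direction with at least 2 passing. Of these, 419 had their direction kept, 332 lower and 87 higher. Among all genes that passed, 77.8% had their direction kept. Agreement was judged without the subtraction, and genes with agreeing probes include some that turned, such as Ssb.

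Among the genes that rose were the metallothionein genes Mt1 and Mt2, which code for small cysteine-rich proteins that bind zinc and copper. Mt1 stood at 14.39, 14.41 and 14.12 with Crebl2 siRNA and 12.47, 12.86 and 12.62 with luciferase siRNA. The groups did not overlap, and the rise was 1.66 ± 0.15 (3.15-fold; adjusted p = 0.000440). After the subtraction it was 1.79 ± 0.25 (adjusted p = 0.0574), short of the threshold, while on the deposited scale Mt1 passed (1.77; adjusted p = 6.92e-06). In ethanol Mt1 was also higher, at 14.11, 14.20 and 14.03 with Crebl2 siRNA against 13.17 and 12.93 with luciferase siRNA (1.11 ± 0.17; adjusted p = 0.00920). Mt2 had levels of 9.22, 8.82 and 9.04 with Crebl2 siRNA and 5.03, 5.90 and 6.15 with luciferase siRNA, a rise of 3.33 ± 0.47 (adjusted p = 0.00236). More than 1 log2 unit of that was shared with the shift, since Mt2 read 9.02 on replicate 3 in ethanol against 7.11 and 7.29 on replicates 1 and 2. The subtraction left 1.51 ± 0.53 (adjusted p = 0.281; 0.0310 on the deposited scale), and in ethanol the difference was 1.90 ± 0.36 (adjusted p = 0.0188). Mt1 and Mt2 are close paralogs read by 1 probe each, and cross-hybridisation between them was not tested.

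Metallothionein genes are switched on by the zinc-sensing factor MTF-1 through metal response elements, whose core is TGCACNC or TGCGCNC. The promoter windows of both genes are shown because these genes were higher with rapamycin and with ethanol, with the cores on either strand in capitals. Mt1 (chr8:94178839-94179138, plus strand) held 3 and Mt2 (chr8:94172368-94172667, plus strand) held 4. At least 1 core stood in 25.7% of the 32851 windows and at least 3 in 1.97%.
Mt1: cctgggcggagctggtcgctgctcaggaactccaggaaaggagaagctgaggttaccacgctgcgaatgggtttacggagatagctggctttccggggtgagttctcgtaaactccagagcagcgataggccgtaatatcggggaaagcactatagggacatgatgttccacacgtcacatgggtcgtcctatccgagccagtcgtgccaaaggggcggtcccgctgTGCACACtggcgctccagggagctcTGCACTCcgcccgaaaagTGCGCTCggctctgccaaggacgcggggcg
Mt2: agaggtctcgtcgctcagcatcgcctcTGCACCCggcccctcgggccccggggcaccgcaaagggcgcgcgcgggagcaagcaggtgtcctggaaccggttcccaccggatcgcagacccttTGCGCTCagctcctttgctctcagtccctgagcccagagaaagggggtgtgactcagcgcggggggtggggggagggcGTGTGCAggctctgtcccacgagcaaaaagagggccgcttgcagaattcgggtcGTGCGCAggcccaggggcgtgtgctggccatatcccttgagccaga
These are known metal-regulated promoters, and the match draws nothing about MTF-1 in these cells.

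Tfrc, the transferrin receptor that takes up iron, rose on both probes. Its levels were 10.93, 10.91 and 10.58 with Crebl2 siRNA and 9.48, 9.69 and 9.74 with luciferase siRNA, a rise of 1.17 ± 0.15 (2.25-fold; adjusted p = 0.00180). The shift moved it little: 1.33 ± 0.25 after the subtraction (adjusted p = 0.0847; 0.000336 on the deposited scale). In ethanol it was also higher, by 0.82 ± 0.17 (adjusted p = 0.0236). Transcription factors among the highest rises were Hoxc13 (1.48 ± 0.18, with 1.47 after the subtraction), Sox18 (1.27 ± 0.28, with 1.99) and the MYC relative Mycl (1.26 ± 0.20, with 1.44). All 3 passed on the deposited scale, with adjusted p of 0.00313, 0.00244 and 0.00565. Mycl differed by 0.11 in ethanol (adjusted p = 0.841) and Sox18 by 2.45 (adjusted p = 0.00403). The limma test of the change between rapamycin and ethanol passed for neither (adjusted p of 0.206 and 0.735). Sgsh, a lysosomal sulfatase of heparan sulfate, rose by 2.03 ± 0.31 on its brightest probe and on its second. Its subtracted differences were 1.11 and 0.08, so that the second probe lost nearly all of its rise. Sertad4, Hykk (hydroxylysine kinase) and 6430526O11Rik rose by 0.67, 2.61 and 1.45, with 0.82, 1.38 and 1.18 after the subtraction. The talin gene Tln2 and 2610008E11Rik were above background on no array with luciferase siRNA. Without the subtraction they were at least 2.91-fold and 3.50-fold higher with Crebl2 siRNA (adjusted p of 0.000730 and 0.000535). After it their differences were 1.23 and 1.37 and did not pass (adjusted p of 0.0933 and 0.0630). Tm9sf3 and Wtap, with agreeing probes, rose by 4.20 and 4.83, of which 0.84 and 0.68 remained after the subtraction (-0.07 on the second probe of Tm9sf3). With luciferase siRNA, Hykk was above background on 2 and Wtap on 1 of 3 arrays. On the deposited scale Sertad4 (adjusted p = 0.0169) and Sgsh (0.0279) passed. Hykk (0.0762), 6430526O11Rik (0.175), Tln2 (0.155), 2610008E11Rik (0.0547), Tm9sf3 (0.201) and Wtap (0.594) did not.

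**Figure D4:**
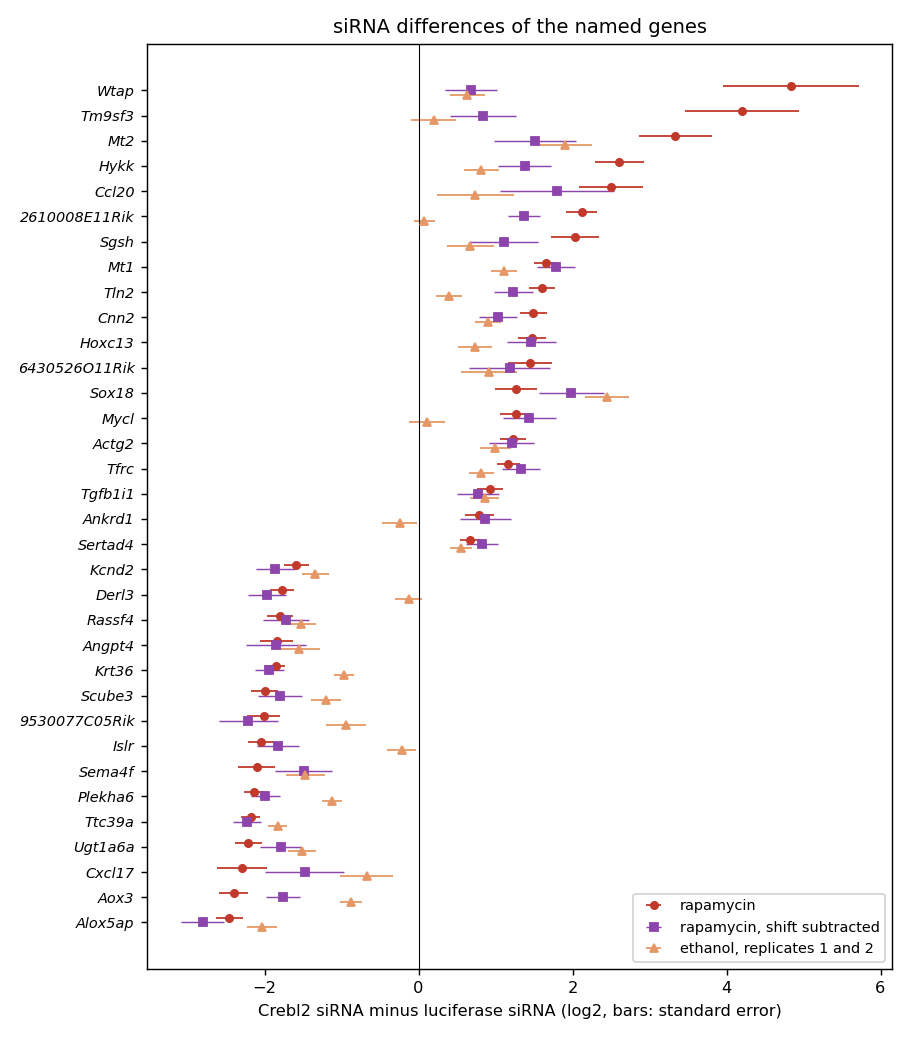
Difference between Crebl2 siRNA and luciferase siRNA (horizontal axis, log2, bars for the standard error) of the genes named by rank, 1 row per gene, in rapamycin (circles), in rapamycin after the shift was subtracted (squares) and in ethanol on replicates 1 and 2 (triangles). The squares lie near the circles for Ttc39a, Plekha6, Krt36, Mt1, Hoxc13 and Tfrc, and far from them for Wtap, Tm9sf3 and Mt2.

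Cytoskeletal and contractile genes controlled by SRF and YAP rose in part. Of 19 measured YAP and SRF targets 8 were higher and 2 lower, against 11.5% and 17.7% of all genes (5 and 2 with their direction kept), and the median difference was 0.28 and -0.00 after the subtraction. Cnn2, a calponin that binds actin, had levels of 9.98, 10.29 and 10.22 with Crebl2 siRNA and 8.84, 8.72 and 8.45 with luciferase siRNA. It rose by 1.49 ± 0.18 (adjusted p = 0.00125), and on its 2 probes 1.03 and -0.03 remained after the subtraction. Tagln, the smooth muscle protein transgelin, had levels of 8.34, 8.17 and 8.63 with Crebl2 siRNA and 7.43, 7.69 and 7.54 with luciferase siRNA. Its rise of 0.82 ± 0.20 (adjusted p = 0.0133) became 1.49 ± 0.24 after the subtraction (adjusted p = 0.0755; 0.000594 on the deposited scale), beside 1.51 ± 0.16 in ethanol. The subtracted and ethanol values of Tagln share replicates 1 and 2 of Crebl2 siRNA with ethanol. Actg2, smooth muscle gamma actin, rose by 1.22 (1.21 after the subtraction), and Ankrd1 by 0.79 (0.87). Tgfb1i1, a focal adhesion protein outside the list, rose by 0.93 (0.78). Myl9, a myosin light chain on the YAP and SRF list, fell by -1.01 ± 0.16 (adjusted p = 0.00416; -0.86 after the subtraction). Its levels were 6.52, 6.04 and 6.54 with Crebl2 siRNA and 7.36, 7.47 and 7.30 with luciferase siRNA, and its second probe did not pass. On the deposited scale Cnn2, Tagln and Ankrd1 were the 3 members of the list that passed. In ethanol the list had a median of 0.35, with 5 higher and 0 lower, against 2.19% and 4.17% of all genes.

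Ribosome biogenesis genes, whose products make and assemble ribosomal RNA and which mTORC1 is known to promote, were higher with Crebl2 siRNA for 10 of 27 and lower for 0, against 11.5% and 17.7% of all genes. Of the 10, 9 kept their direction (7.2% of all genes). The median difference was 0.25 and after the subtraction 0.28, with 24 of 27 above 0, against medians of -0.14 and -0.00 over all genes. Rrp9, a subunit of the U3 snoRNP, had levels of 8.38, 8.07 and 8.26 with Crebl2 siRNA and 7.02, 7.53 and 7.19 with luciferase siRNA. It rose by 0.99 ± 0.18 (adjusted p = 0.00586), with 1.34 after the subtraction. The rRNA methyltransferase gene Nop2 rose by 0.94 ± 0.19 (0.94), and 1 of its 3 probes passed. Nucleolin (Ncl) rose by 1.20 (0.57) on 1 of 2 probes and Ltv1, a factor of small subunit assembly, by 0.83 (0.51). No member passed the subtracted test, and on the deposited scale Rrp9, Nop2 and Noc2l were higher and Dkc1, which was higher without the subtraction, lower. Noc2l and Dkc1 are named after their values were seen. In ethanol the median was 0.02, with 0 higher and 1 lower. Whether the siRNA effect on this list differed between rapamycin and ethanol was not tested as a list.

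Inflammatory genes under NF-kB were higher for 7 of 19 and lower for 1, against 11.5% and 17.7% of all genes, and all 8 kept their direction (7.2% and 15.5% of all genes). The median difference was 0.03 and after the subtraction 0.25. Ccl20, the chemokine ligand of CCR6, had levels of 8.19, 8.18 and 7.51 with Crebl2 siRNA and 4.48, 6.08 and 5.82 with luciferase siRNA, where 2 of 3 arrays were above background. It rose by 2.50 ± 0.42 (adjusted p = 0.00458), with 1.80 ± 0.74 after the subtraction (adjusted p = 0.347; 0.0286 on the deposited scale). The cytokine gene Il6 rose by 2.13 (0.98 after the subtraction), the adhesion receptor gene Vcam1 by 0.52 (0.81) on its brightest probe, with 2 of 4 probes passing, and the pentraxin gene Ptx3 by 0.82 (0.50) on both probes. Il6 was above background on 1 of 3 arrays with luciferase siRNA. On the deposited scale Vcam1 passed (adjusted p = 0.0184), and Il6 (0.134) and Ptx3 (0.101) did not. In ethanol Ccl20, Il6, Vcam1 and Ptx3 differed by 0.74, 0.21, 0.10 and -0.11, with adjusted p of 0.441, 0.630, 0.789 and 0.646. The limma test of the change between rapamycin and ethanol passed for none of them (adjusted p of 0.631, 0.395, 0.305 and 0.230).

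Genes of xenobiotic and aldehyde metabolism, Aox3 among them, were lower in part. Of 22 oxidoreductases and conjugating enzymes measured, 11 were lower and 2 higher, all 13 with their direction kept. Over all genes 17.7% were lower and 11.5% higher, or 15.5% and 7.2% with direction kept. The median difference was -0.47, with -0.18 after the subtraction. Ugt1a6a, a glucuronosyltransferase, fell by -2.21 ± 0.18 (adjusted p = 0.000315; -1.79 after the subtraction). Its probes disagreed: a second fell by -1.71, and the third was higher by 1.56 (-0.58 after the subtraction). Exons are shared among the Ugt1a genes, so the member that a probe reads is uncertain. Aldh3a1, an aldehyde dehydrogenase, had levels of 8.29, 8.03 and 7.99 with Crebl2 siRNA and 9.94, 9.91 and 9.67 with luciferase siRNA and fell by -1.74 ± 0.17 (-1.22). Akr1c18, which inactivates progesterone, fell by -0.86 (-1.05). With Aox3 these are the 4 members that passed on the deposited scale, all lower.

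Fatty acid oxidation genes were lower for 9 of 19 and higher for 2 (17.7% and 11.5% of all genes), with a median of -0.40 and -0.23 after the subtraction. Ppard, a nuclear receptor that turns on fatty acid oxidation, had levels of 9.50, 9.28 and 9.54 with Crebl2 siRNA and 10.43, 10.55 and 10.38 with luciferase siRNA. It fell by -1.01 ± 0.13 (adjusted p = 0.00167), with -1.15 after the subtraction and -1.15 in ethanol. The coactivator gene Ppargc1a fell by -0.92 (-0.64) and the thiolase gene Acaa2 by -1.26 (-0.43). Cpt1a, which starts the import of fatty acids into mitochondria, rose by 1.30 (0.60), from a signal above background on 1 of 3 arrays with luciferase siRNA. Cholesterol synthesis and uptake genes were lower for 8 of 18 and higher for 1 (again 17.7% and 11.5% of all genes), with a median of -0.49 and -0.13 after the subtraction. The enzyme genes Sc5d, Nsdhl and Pmvk fell by -0.99, -1.37 and -0.59, with -0.81, -0.59 and -0.67 after the subtraction. Stard4, which carries cholesterol between membranes, fell by -0.79 (-0.63) and was the 1 member that passed on the deposited scale (adjusted p = 0.0495). Pdk4, the kinase that holds back pyruvate dehydrogenase, fell by -1.29 (-1.52) and was above background on 1 of 3 arrays with Crebl2 siRNA. Its second probe ran the other way, at 0.29 (0.69), and did not pass. On the deposited scale Pdk4 did not pass (adjusted p = 0.0956).

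Genes of the ATF4 program, which supplies amino acids and answers stress, were lower for 14 of 30 and higher for 2, against 17.7% and 11.5% of all genes. Their median was -0.40 and -0.17 after the subtraction, beside -0.58 in ethanol, where 14 were lower and 0 higher (4.17% and 2.19% of all genes there). Trib3, a pseudokinase that ATF4 turns on, had levels of 9.13, 9.27 and 9.22 with Crebl2 siRNA and 10.30, 10.49 and 10.46 with luciferase siRNA. It fell by -1.21 ± 0.16 on its brightest probe (adjusted p = 0.00191), and the other 2 probes fell as well. After the subtraction Trib3 kept -0.71 on the brightest probe and -0.10 and -0.25 on the others. In ethanol its levels were higher in both groups, at 11.24, 11.31 and 10.78 with Crebl2 siRNA against 13.21 and 13.37 with luciferase siRNA, and the difference was -2.02 ± 0.13. The difference between both effects, 1.31, did not pass (adjusted p = 0.0722). Ddit4, an inhibitor of mTORC1 signalling, fell by -1.47 (-0.88) and the hormone gene Fgf21 by -1.25 (-0.80), beside -1.31 and -2.91 in ethanol. On the deposited scale Trib3 was the 1 member of the list that passed (limma adjusted p = 0.0265). Ddit4 (0.0832) and Fgf21 (0.521) did not pass there. Glycolysis genes were lower for 7 of 21 and higher for 1 (17.7% and 11.5% of all genes), with a median of -0.29 and -0.08 after the subtraction. Pdk1, Ldha and Pfkl fell by -0.98, -0.62 and -0.74, with -0.78, -0.44 and -0.44 after the subtraction. None of them passed after it, with limma adjusted p of 0.332, 0.380 and 0.353 (0.103, 0.163 and 0.229 on the deposited scale). On the deposited scale 0 of the 21 glycolysis genes passed. The second probe of Pfkl ran the other way, at 0.93, and did not pass.

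The difference of the chaperone gene Hspa5 was shared with the shift. Hspa5, the main chaperone of the endoplasmic reticulum, had levels of 12.19, 12.29 and 12.48 with Crebl2 siRNA and 6.60, 7.43 and 6.52 with luciferase siRNA, a difference of 5.47 ± 1.05 (adjusted p = 0.00675). On replicate 3 of Crebl2 siRNA with ethanol it read 12.55, against 7.61 and 7.87 on replicates 1 and 2, and after the subtraction 0.65 ± 0.59 was left (adjusted p = 0.710). The mitochondrial chaperonins Hspd1 and Hspe1 and the heat shock gene Hspa1b rose by 0.88, 2.05 and 3.51, with 0.34, 0.27 and 0.02 after the subtraction. Hspa1b and Hspd1 have a second probe each, which did not pass. The heat shock list was higher for 5 of 13 and lower for 0 (11.5% and 17.7% of all genes), and its median was 0.37, with 0.06 after the subtraction. Of the 20 chaperone and unfolded protein response genes of the endoplasmic reticulum, Hspa5 included, 8 were lower, 2 higher and 10 did not pass, against 17.7% lower and 11.5% higher of all genes. Dnajc3, a co-chaperone that restrains the kinase PERK, fell by -1.16 ± 0.15 (-1.01 after the subtraction; adjusted p = 0.0110 on the deposited scale). Edem1 and Sdf2l1 fell by -1.20 and -1.70 (-1.23 and -0.52). Among the genes that turned, Ccni, Abracl and Ssb differed by 5.91, 5.85 and 5.71 and turned to -0.02, -0.60 and -0.28, and Spr, Nudt2 and Tmem131 differed by -1.47, -1.23 and -1.50 and turned to 0.23, 0.15 and 0.09. Ccni and Abracl were above background on 1 of 3 arrays with luciferase siRNA.

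Of 30 measured matrix and fibroblast genes 11 were lower and 5 higher (17.7% and 11.5% of all genes), with a median of -0.25 and -0.03 after the subtraction. Col6a1, a chain of type VI collagen, had levels of 11.31, 11.19 and 11.37 with Crebl2 siRNA and 12.73, 12.43 and 12.60 with luciferase siRNA. It fell by -1.30 ± 0.15 (adjusted p = 0.00125; -0.89 after the subtraction) on 3 probes, and Col6a3 by -0.47 (-0.47) on 1 of 3 probes. The clock list, with 2 higher and 3 lower of 14, lay near the 11.5% and 17.7% of all genes, and its members are given as single genes. Dbp, a clock-driven bZIP factor, had levels of 8.74, 8.41 and 8.61 with Crebl2 siRNA and 9.90, 9.84 and 9.88 with luciferase siRNA and fell by -1.29 ± 0.15 (-0.86), beside -0.95 in ethanol. The nuclear receptor gene Rora fell by -0.74 (-0.75), on 1 of 3 probes. Ciart, a clock repressor, was higher by 0.91 ± 0.20 in rapamycin (0.73 after the subtraction) on 1 of its 3 probes and lower by -2.19 ± 0.24 in ethanol. The test of that change did not pass (2.93; adjusted p = 0.0562). Wnt genes were higher for 4 and lower for 6 of 24, close to the 11.5% and 17.7% of all genes, with Wnt5b at -1.17 (-0.95) among the lower ones.

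**Figure D5:**
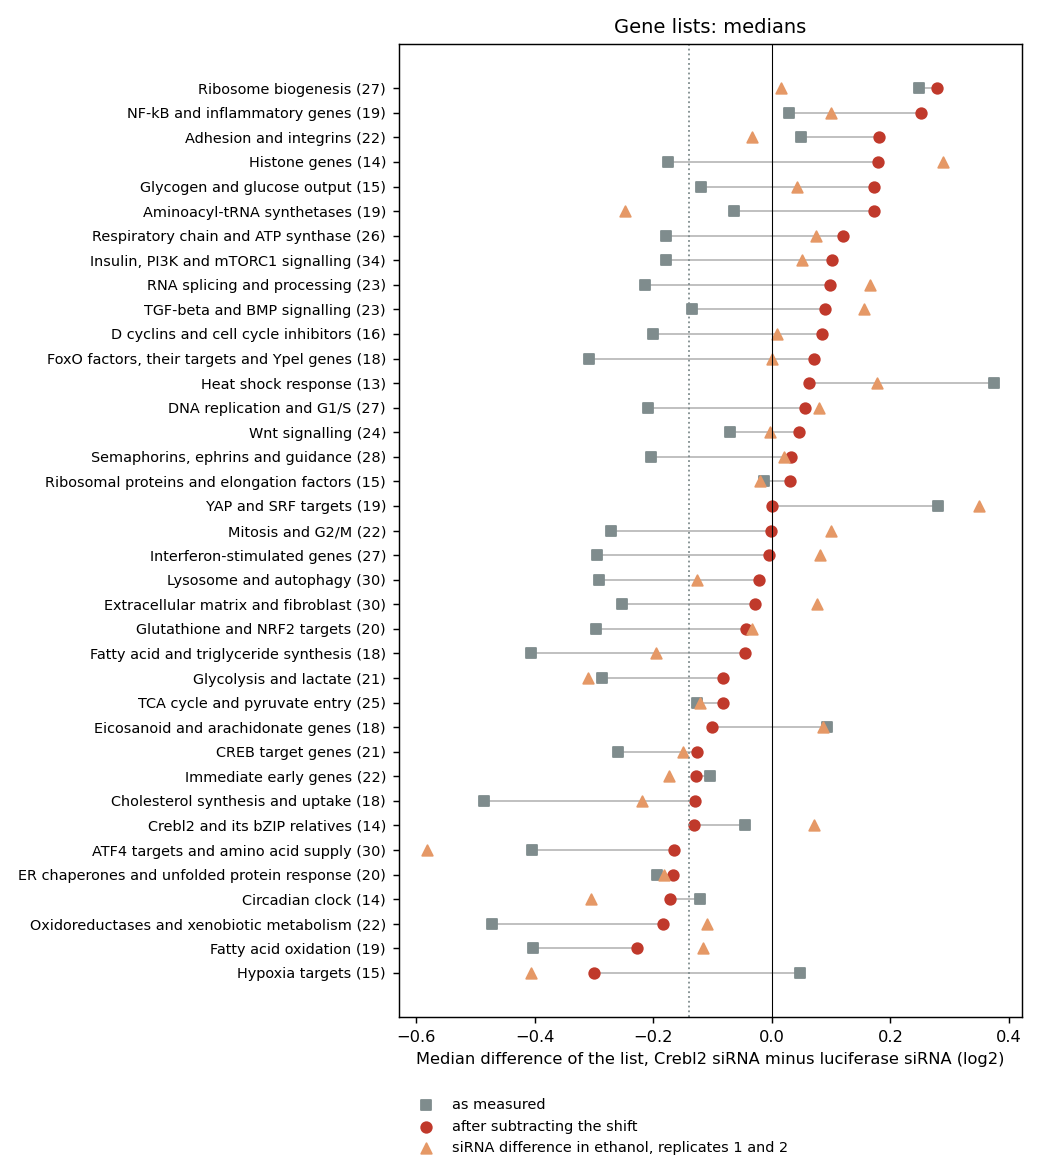
Median difference between Crebl2 siRNA and luciferase siRNA (horizontal axis, log2) of each gene list, with its number of genes tested in brackets, in rapamycin as measured (squares), after the shift was subtracted (circles) and in ethanol on replicates 1 and 2 (triangles); the dotted line marks the median of all genes in rapamycin. Ribosome biogenesis and NF-kB genes have the highest medians after the subtraction, the heat shock median moves to 0.06 from 0.37 and the hypoxia median to -0.30 from 0.05.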

How the data were processed

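Groups were taken from the submitters' labels. Per the file headers, the authors' normalized table holds linear intensity values after a normalization between arrays, with a detection p-value per probe. The method is not given in the sources used here. The deposited non-normalized table was not used, because its probe identifiers did not belong to its values (r of -0.00964 to -0.00628 with the normalized table), and the deposited series matrix held the same intensity values as the normalized table.

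Background was corrected with nec of limma 3.58.1 (R 4.3.3; normexp, parameters from the detection p-values, offset 16), without a second normalization, and log2 was taken. The filter kept probes with a detection p under 0.05 on 2 or more of 11 arrays (28936 of 46237). Of the probes 35784 had 1 symbol, 0 several and 10453 none. The probe with the highest mean stood for its gene (15908 genes). One limma model (lmFit, eBayes) covered the 4 groups without a block, with 7 residual degrees of freedom and 3.32 prior ones. A second fit added an indicator for the 4 arrays that stood apart, which subtracts the shift. Benjamini-Hochberg adjustment ran over all genes, with a threshold of 0.05. The code was tested on simulated data. Where every array of a group read a gene below background, a fold is a bound against a floor, the mean over arrays of the larger of the gene's signal and the lowest signal detected.

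Named were Crebl2, Crebrf and Tsc2, the 12 highest and 12 lowest differences with direction kept (ranked by the smaller of both differences), 8 and 8 with agreeing probes, up to 4 passing members per list and 3 and 3 that turned. The members, the 43 lists and the rules were chosen with earlier results of these data known. Values across replicates with the same number did not deviate together (r of 0.00681, 0.0263 and -0.0083), so the numbers were not taken as pairs. Alternatives covered background, normalization, filter, samples, weights, probes, block and single arrays. Lists were counted, not tested.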

Additional observations from a re-analysis of the deposited data

Results flagged for a closer look

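Stbd1, a protein that binds glycogen and links it to membranes, was the 1 gene whose siRNA effect differed between rapamycin and ethanol in the fit with the shift subtracted (limma), against 1869 genes with an unadjusted p under 0.05. The difference of both effects was 2.33 ± 0.20 (SE; adjusted p = 0.0110). In rapamycin its log2 levels were 7.51, 7.41 and 7.39 with Crebl2 siRNA and 7.39, 7.44 and 7.38 with luciferase siRNA. In ethanol they were 8.07, 7.98 and 7.50 with Crebl2 siRNA and 9.65 and 9.95 with luciferase siRNA. The siRNA difference was 0.56 in rapamycin after the subtraction and -1.77 in ethanol. It rests on 1 probe, and the cause was not tested.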

How the results depend on the processing

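Of 88 named genes besides Crebl2, 86 passed. Between 78 and 86 of them kept their call under the alternatives without the indicator for the 4 arrays. With that indicator 8 kept it, and with the replicate block and the indicator 0 did. The count of genes was 4636. It was 8 with the indicator and 0 with the replicate block and the indicator (1670 with an unadjusted p under 0.05). Without 1 array it ran from 3060 to 6417. With the replicate block alone, by numbers that do not pair the samples, it was 4396.

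The count after the subtraction was 8, 444 without background correction and 29 with the stricter filter. Without 1 array it was 0 (without replicate 1 of Crebl2 siRNA with ethanol; 1695 unadjusted) to 6, and 1 without replicate 2 of that group. On the deposited values the 444 became 188 to 436. The subtraction could not be fitted once replicate 3 of the ethanol arrays of Crebl2 siRNA was left out, since that array sets the shift. The higher share among all calls was 35.6% to 43.9%, except for 12.5% with the indicator (main 39.3%). Crebl2 passed with array weights (-0.98, adjusted p = 0.0329), and without 1 array ran from -1.26 to -0.71.

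Directions reversed as follows, and the cause was not tested. Crebrf went to -0.000617 without background correction, -0.128 with the indicator, -0.0606 without replicate 2 of luciferase siRNA with rapamycin and -0.0388 without replicate 3 of Crebl2 siRNA with rapamycin (highest without 1 array: 0.238). With the mean of all probes Tsc2 was at 0.119 and Pfkl at 0.0952. Hspa1b was at -0.272 with block and indicator. With the indicator, and with block and indicator, Abracl was at -0.595 and -0.355, Ssb at -0.278 and -0.628, Spr at 0.225 and 0.0260, Nudt2 at 0.152 and 0.215 and Tmem131 at 0.0903 and 0.0264. Ccni was at -0.0232 with the indicator. Stbd1 was at -0.0186 with quantile normalization, -0.0115 with median scaling and -0.00347 without replicate 1 of Crebl2 siRNA with rapamycin (highest without 1 array: 0.0557). Some probes were dim: 414 genes that passed as higher were above background on no array with luciferase siRNA in rapamycin. Of those that passed as lower, 96 were above background on none with Crebl2 siRNA. How dim probes bear on the precision was not tested.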

Other observations

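Other gene groups are given beside the share of all genes (11.5% higher, 17.7% lower) and their median after the subtraction. Of 27 DNA replication and G1/S genes, 3 were higher and 6 lower with Crebl2 siRNA in rapamycin, and the median after the subtraction was 0.06. Of 22 mitosis genes, 5 were higher and 3 lower, with a subtracted median of -0.00. Of 30 lysosome and autophagy genes, 4 were higher and 7 lower, with a subtracted median of -0.02. Of 27 interferon-stimulated genes, 3 were higher and 4 lower, with a subtracted median of -0.01. Of 15 ribosomal proteins and elongation factors, 2 were higher and 3 lower, with a subtracted median of 0.03. Of 26 respiratory chain genes, 6 were higher and 0 lower, with a median of -0.18 and 0.12 after the subtraction.

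Hypoxia targets were higher for 4 and lower for 2 of 15, with 1 and 2 keeping their direction (all genes: 11.5% higher and 17.7% lower, or 7.2% and 15.5% with direction kept). Their median was 0.05, against -0.30 after the subtraction and -0.41 in ethanol. Of 23 TGF-beta and BMP genes, 6 were higher and 5 lower, and in ethanol 5 were higher and 0 lower (all genes in ethanol: 2.19% and 4.17%). No muscle or neural marker passed, of 4 and 3 measured. Of 8 endothelial and 3 adipocyte markers measured, 1 each was lower and 0 higher (17.7% and 11.5% of all genes). These were Esam (-0.62; adjusted p = 0.0260, and 0.447 after the subtraction) and Pparg (-1.10; 0.0165, and 0.962). The second probe of Pparg did not pass.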
